A study of Mus musculus with 8 samples.

Results

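The 39 genes of DNA replication and S phase described here were picked by name from the 54146 gene identifiers shared by both deposited tables, and each was found in both. They fall into 14 genes of origin licensing and the replicative helicase, 16 genes of the polymerases, the sliding clamp and the replication fork, 5 genes of nucleotide supply, and 4 G1/S cyclins and regulators. They were chosen by function, with earlier results of these data known. The tables hold 10x Genomics 3′ single-cell RNA-seq of mouse embryonic stem (mES) cells, which the labels call ICM-derived ES cells and the methods name as the E14 line, wild type. All cells were grown for 2 days in LIF/2i medium over mouse embryonic fibroblast (MEF) feeders on plates coated with gelatin. The Control cells were untreated, and the other cells received CX-5461, an inhibitor of RNA polymerase I, the enzyme that transcribes rRNA. The dose and duration of CX-5461 for these libraries, and whether the feeders had been arrested in mitosis, are not given in the sources used here. The question of the comparison is which genes differ between Control and CX-5461-treated mES cells, cell by cell.

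DNA replication starts at origins that are licensed in G1, when the origin recognition complex, Cdc6 and Cdt1 load the ring-shaped Mcm2-7 helicase onto DNA. At the start of S phase Cdc45 and the GINS complex join Mcm2-7 to form the active helicase, primase and the replicative polymerases copy both strands, and replication factor C loads the clamp Pcna. Ribonucleotide reductase, thymidylate synthase and related enzymes supply the deoxynucleotides. Cyclin E and the E2F factors drive the G1/S step. mES cells have a short G1 phase and spend much of their cycle in S phase.

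The labels list 4 samples per condition, but the tables pool the cells of a condition under numbered barcodes that name no sample, so each condition was 1 library. Cells of 1 library are not replicates. No test between the conditions was therefore made, and all intervals are exact 95% intervals that cover counting error only. The tables held 3838 Control and 4922 CX-5461 barcodes. Because the barcodes are numbered, those that the libraries share could not be counted. Among cells with at least 5000 UMIs (unique molecular identifiers, each marking 1 captured RNA molecule) and at most 0.1 of them on mitochondrial genes, 2331 Control and 3928 CX-5461 cells were ES-like. They had medians of 15943 and 14746 UMIs per cell and 41238236 and 60512351 UMIs in sum. Their median mitochondrial share was 1.88% in Control and 4.00% in CX-5461, so every difference between ES-like cells below goes with a higher mitochondrial share, whose part was not tested. Another 198 Control and 163 CX-5461 cells were fibroblast-like, with 4490375 and 3934557 UMIs. No ES-like cluster spanned both libraries: clusters c1 and c4 held the Control cells, and clusters c0 and c3 held nearly all CX-5461 cells, so the treatment, the library and the cluster cannot be told apart. The 12 ES markers summed to 7706 CPM (UMIs per 1000000 UMIs of the library) in Control and 8219 CPM in CX-5461 ES-like cells, and none was at 0.

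The start regions of 7 members are shown for the promoter letters that are compared below. Their log2 ratios of CX-5461 over Control run from -0.42 (Pcna) to 0.79 (Prim1). Orc6, Prim1, Rfc4 and Cdc45 are among the 6 members with the largest ratios. The others of the 6, Prim2 with the largest log2 ratio of all (2.06) and Dscc1, had no matched start region. Pcna, Cdc6 and Mcm6 were added after their values and matches had been seen. Each sequence runs from 250 bases before to 50 bases after the RefSeq transcription start, 5′ to 3′ on the gene's strand, build GRCm38.p6. Capitals mark the E2F-type words TTTGGCGC, TTTCCCGC, TTTGCCGC and TTTCGCGC and the word CCAAT, all read on both strands.
Orc6, chr8:85299382-85299681, plus strand: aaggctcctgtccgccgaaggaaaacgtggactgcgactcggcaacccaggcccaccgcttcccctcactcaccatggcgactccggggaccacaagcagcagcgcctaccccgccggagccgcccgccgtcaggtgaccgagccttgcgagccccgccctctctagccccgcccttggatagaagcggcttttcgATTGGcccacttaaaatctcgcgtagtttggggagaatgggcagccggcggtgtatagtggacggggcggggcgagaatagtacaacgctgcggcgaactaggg
Prim1, chr10:128014965-128015264, plus strand: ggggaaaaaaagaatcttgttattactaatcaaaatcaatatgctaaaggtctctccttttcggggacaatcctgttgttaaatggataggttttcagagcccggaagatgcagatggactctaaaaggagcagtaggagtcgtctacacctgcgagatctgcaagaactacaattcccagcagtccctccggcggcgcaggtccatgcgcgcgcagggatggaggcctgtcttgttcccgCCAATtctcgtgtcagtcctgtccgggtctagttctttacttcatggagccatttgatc
Rfc4, chr16:23127681-23127980, minus strand: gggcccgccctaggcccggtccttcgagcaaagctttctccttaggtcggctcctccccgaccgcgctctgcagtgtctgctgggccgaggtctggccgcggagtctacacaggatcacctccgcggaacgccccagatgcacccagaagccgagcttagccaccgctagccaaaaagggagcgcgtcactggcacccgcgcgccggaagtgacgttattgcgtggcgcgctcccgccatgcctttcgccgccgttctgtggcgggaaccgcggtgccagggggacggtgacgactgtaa
Cdc45, chr16:18811923-18812222, minus strand: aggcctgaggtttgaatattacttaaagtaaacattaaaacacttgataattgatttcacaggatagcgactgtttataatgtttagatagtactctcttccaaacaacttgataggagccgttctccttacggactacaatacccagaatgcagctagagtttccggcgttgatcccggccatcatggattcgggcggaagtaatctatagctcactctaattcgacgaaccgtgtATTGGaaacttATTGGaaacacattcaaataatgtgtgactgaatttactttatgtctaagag
Pcna, chr2:132253131-132253430, minus strand: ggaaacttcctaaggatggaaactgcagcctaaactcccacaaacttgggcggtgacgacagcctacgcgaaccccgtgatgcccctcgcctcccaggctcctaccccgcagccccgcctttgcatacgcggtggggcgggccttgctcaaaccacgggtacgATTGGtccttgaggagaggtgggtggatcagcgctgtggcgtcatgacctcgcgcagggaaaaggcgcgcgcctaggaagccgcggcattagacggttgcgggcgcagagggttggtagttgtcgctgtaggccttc
Cdc6, chr11:98907901-98908200, plus strand: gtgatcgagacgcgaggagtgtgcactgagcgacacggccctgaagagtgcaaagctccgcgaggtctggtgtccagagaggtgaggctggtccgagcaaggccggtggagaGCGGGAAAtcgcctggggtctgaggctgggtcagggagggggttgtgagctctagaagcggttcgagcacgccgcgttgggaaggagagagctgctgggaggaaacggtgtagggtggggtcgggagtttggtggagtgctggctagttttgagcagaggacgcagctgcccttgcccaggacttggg
Mcm6, chr1:128359656-128359955, minus strand: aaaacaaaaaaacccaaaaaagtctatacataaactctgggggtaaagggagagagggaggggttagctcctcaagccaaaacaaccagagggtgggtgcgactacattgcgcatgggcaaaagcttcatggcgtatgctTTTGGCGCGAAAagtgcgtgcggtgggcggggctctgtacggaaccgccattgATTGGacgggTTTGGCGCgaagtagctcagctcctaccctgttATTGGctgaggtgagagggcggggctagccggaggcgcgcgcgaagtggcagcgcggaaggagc

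RefSeq start regions were matched for 31 of the 39 members. At least 1 of the 4 E2F-type words stood in 11 of the 31 (35.5%), against 2.26% of all 32851 start regions of this length. CCAAT stood in 20 of the 31 (64.5%), against 37.4% of all start regions. All start regions were counted without matching them to the members in expression or base composition, so these gaps are not particular to replication. Mcm6 held 3 E2F-type matches and 2 of CCAAT, and TTTGGCGC and TTTCGCGC overlapped at 1 place in it. Cdc6 held 1 E2F-type match, in a window that lies within its GENCODE gene, which starts further upstream at 98907801. Orc6, Prim1, Cdc45 and Pcna held CCAAT only. Rfc4 held none of the words in this window. The 11 members with an E2F-type word had a median log2 ratio of CX-5461 over Control of 0.31, and the 20 without one had 0.28. These matches are letters in a window and were not measured as binding sites.

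In ES-like cells the replication genes as a set stood close to the average gene. The 39 genes together took 2545 CPM in Control (95% interval 2529 to 2560) and 3001 CPM in CX-5461 (2987 to 3015), a ratio of 1.18 on library totals that turned below 1 under scalings that centre the bulk of genes (log2 -0.16 with TMM and -0.21 with DESeq2 size factors). That sum is 0.254% of all UMIs in Control and 0.300% in CX-5461. Most other genes also read higher in the CX-5461 library: of 11567 genes that reached 200 UMIs in both libraries together, 72.5% were higher, and their median log2 ratio was 0.36. The median of the 39 members was 0.31, below that of all genes. Of the members, 28 were higher and 11 lower than in Control on library totals. Relative to the median of all genes, 15 were above and 24 below. Each ratio is therefore given below on library totals, with its position against 0.36 where that alters its reading. The quartiles of all genes were -0.05 and 0.83, and gaps between members are to be read beside that spread.

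**Figure D1:**
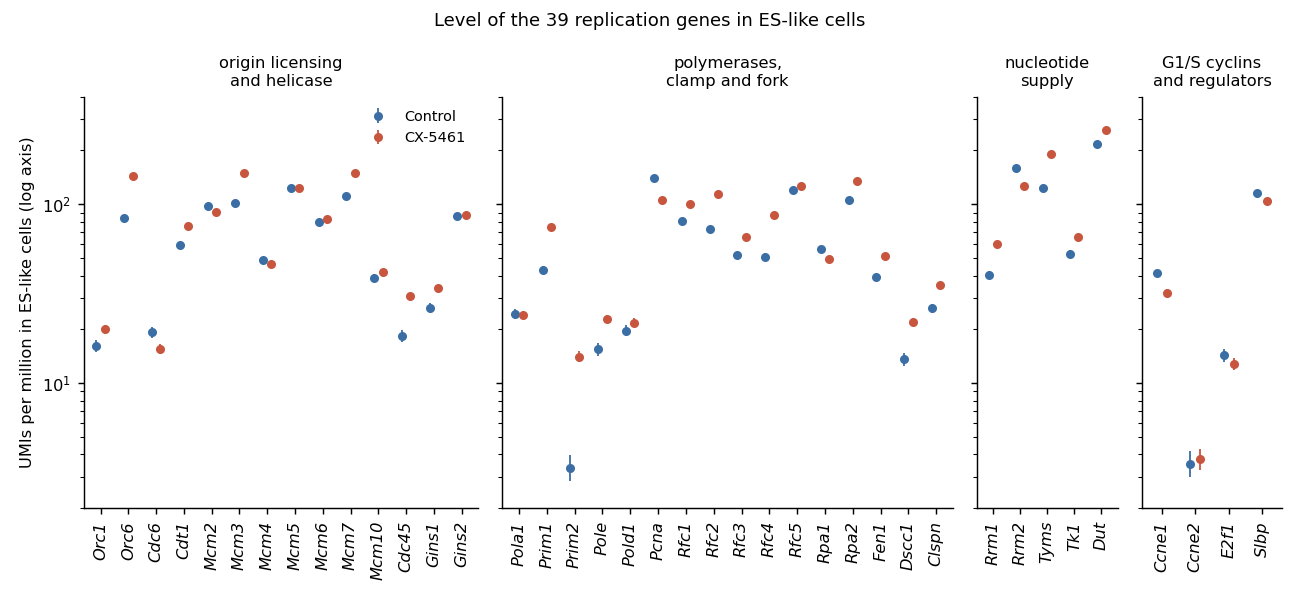
Level of each of the 39 replication genes in Control (blue) and CX-5461 (red) ES-like cells, in CPM on a log axis, by role; bars are exact 95% Poisson intervals and cover counting error only. Prim2 shows the widest gap (3.37 against 14.1), and Pcna, Rrm2, Cdc6 and Ccne1 lie lower in CX-5461.

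At least 1.5-fold higher in CX-5461 were 8 members, Prim2, Prim1, Orc6, Rfc4, Cdc45, Dscc1, Rfc2 and Tyms. They make up 20.5% of the members, while 36.2% of all genes were past that fold. None of the members was 1.5-fold lower, against 7.45% of all genes. Relative to the median of all genes, only Prim2 among the members stayed 1.5-fold higher (21.2% of all genes), and Pcna, Ccne1, Rrm2 and Cdc6 were at least 1.5-fold lower (17.0% of all genes). On neither scale did the share of members exceed that of all genes. At 2-fold on library totals, Prim2 alone was higher (19.5% of all genes) and no member was lower (3.43% of all genes).

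Among the licensing genes, the initiation factors that start the ring loading differed from each other. Orc6 is a small subunit of the origin recognition complex, encoded at chr8:85299632-85308278 (GRCm38). It went from 83.6 CPM (3446 UMIs) to 144 CPM (8734 UMIs), a ratio of 1.73 (1.66 to 1.80). Its gene overlaps Vps35 on the other strand, whose log2 ratio was 0.35. Orc1, the large ATPase subunit of the complex, was at 16.2 and 20.0 CPM, a log2 ratio of 0.31. Cdc6, the loading ATPase, was lower in CX-5461, at 15.5 CPM (937 UMIs) against 19.3 CPM (796 UMIs), a ratio of 0.802 (0.729 to 0.883). Cdt1, which escorts the ring to the origin, was at 59.2 and 75.8 CPM, a log2 ratio of 0.36, next to the median of all genes. Cdc6 and Cdt1, partners in the same loading step, thus lay 0.68 log2 units apart, less than the spread between the quartiles of all genes.

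The 6 subunits of the Mcm2-7 ring are used in equal numbers in the helicase, but their transcripts did not shift together. Mcm3 went from 102 to 149.6 CPM, a ratio of 1.47 (1.42 to 1.53), and Mcm7 from 112 to 150.3 CPM, a ratio of 1.35 (log2 interval 0.38 to 0.48). Mcm2 was at 98.2 and 90.8 CPM, a ratio of 0.925 (0.888 to 0.964). The intervals of Mcm4, Mcm5 and Mcm6 included equal levels, with log2 ratios of -0.08, -0.01 and 0.06. The ring as a whole was at 564 CPM in Control and 643 CPM in CX-5461, a log2 ratio of 0.19. From lowest to highest, the 6 log2 ratios spread over 0.67, less than the spread between the quartiles of all genes. Mcm3 and Mcm7 stood above the median of all genes, Mcm7 by 0.07 log2 units. Mcm2, Mcm4, Mcm5 and Mcm6 stood below it, at -0.30 to -0.47 log2 units relative to it.

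The factors that turn the loaded ring into the active helicase also spread out. Cdc45 (chr16:18780447-18811987) went from 18.4 to 30.6 CPM, a ratio of 1.66 (1.53 to 1.81). Its gene overlaps Ufd1 on the other strand, which had a log2 ratio of 0.53. Of the GINS subunits, Gins1 was at 26.4 and 33.9 CPM (log2 ratio 0.36) and Gins2 at 85.8 and 87.4 CPM (log2 ratio 0.03). Mcm10, which acts in helicase activation, had a log2 ratio of 0.12. Over the 14 licensing and helicase genes, 10 were higher and 4 lower, and 5 exceeded the all-gene median. Of all genes, 72.5% were higher.

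Primase, which lays the RNA primers, held the largest change of the set. Prim2, the large primase subunit (chr1:33453810-33669795, minus strand), had 139 UMIs in Control and 853 in CX-5461, or 3.37 and 14.1 CPM. The ratio was 4.18 (3.49 to 5.04), a log2 ratio of 2.06. This is between the 75th and 95th percentiles of all genes, 0.83 and 2.32. Of the 3 annotated genes that overlap Prim2, Gm29228 had 29 and 21 UMIs, Gm37618 had 1 in each library, and Gm17813 had none. Prim1, the catalytic subunit (chr10:128015168-128030037), went from 43.0 to 74.4 CPM, a ratio of 1.73 (1.64 to 1.83). Pola1, the polymerase subunit of the same primosome, was at 24.4 and 24.1 CPM, with a ratio of 0.988 (0.911 to 1.07).

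Of the leading- and lagging-strand polymerases, Pole, the catalytic subunit of polymerase epsilon, was at 15.5 and 22.9 CPM, a ratio of 1.48 (1.35 to 1.63). Pold1, that of polymerase delta, was at 19.7 and 21.8 CPM, a ratio of 1.11 (1.02 to 1.21).

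The clamp and its loader moved apart. Pcna, the sliding clamp (chr2:132249162-132253314), was at 141 CPM (5825 UMIs) in Control and 106 CPM (6403 UMIs) in CX-5461, a ratio of 0.749 (0.723 to 0.776). Its log2 ratio of -0.42 was the lowest of the 39. The 5 genes of replication factor C, the clamp loader, were all higher on library totals, with log2 ratios of 0.76 for Rfc4, 0.65 for Rfc2, 0.34 for Rfc3, 0.32 for Rfc1 and 0.08 for Rfc5. Only Rfc4 and Rfc2 stood above the median of all genes, and Rfc1, Rfc3 and Rfc5 were lower than Control under the TMM or DESeq2 scaling. Rfc4 went from 51.0 to 86.7 CPM and Rfc2 from 73.1 to 115 CPM. Eif4a2, which overlaps Rfc4 on the other strand, had a log2 ratio of -0.08, and Lat2, which overlaps Rfc2, had 3 and 63 UMIs. Dscc1, part of an alternative loader used in sister chromatid cohesion, went from 13.6 to 22.0 CPM, a ratio of 1.62 (1.47 to 1.79).

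Replication protein A coats single-stranded DNA. Its subunit Rpa1 was at 56.0 and 49.7 CPM (ratio 0.888), 0.53 log2 units under the median of all genes, and its subunit Rpa2 at 106 and 135 CPM (ratio 1.27). Fen1, the flap nuclease that trims Okazaki fragments, had a log2 ratio of 0.39. Clspn, the mediator of the replication checkpoint, had 0.43. Among the 16 genes of this group, 13 were higher and 3 lower (72.5% of all genes were higher), and 8 lay on each side of the median of all genes.

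Within nucleotide supply, the subunits of 1 enzyme differed in direction on library totals. Rrm1, the large subunit of ribonucleotide reductase (chr7:102441695-102469771), went from 40.5 to 60.1 CPM, a ratio of 1.48 (1.40 to 1.57). Rrm2, its small S-phase subunit (chr12:24708241-24714146), went from 159 to 127 CPM, a ratio of 0.798 (0.772 to 0.824). The subunits were 0.89 log2 units apart, about the spread between the quartiles of all genes (-0.05 to 0.83). Tyms, thymidylate synthase (chr5:30058202-30073617), had 5081 UMIs in Control and 11569 in CX-5461, or 123 and 191 CPM, a ratio of 1.55 (log2 interval 0.59 to 0.68). Tk1, thymidine kinase, had a log2 ratio of 0.31. Dut, the dUTPase that keeps uracil out of DNA, had 0.25, with 217 and 259 CPM.

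The G1/S cyclins and regulators were the only group whose sum was lower in CX-5461 on library totals, at 153 CPM (149.7 to 156) against 175 CPM (171 to 179), a log2 ratio of -0.19. Ccne1, cyclin E1 (chr7:38097984-38107534), was at 41.1 CPM (1694 UMIs) in Control and 32.0 CPM (1935 UMIs) in CX-5461, a ratio of 0.778 (0.729 to 0.831). Ccne2, cyclin E2, was rare, with 146 and 228 UMIs, and its ratio of 1.06 (0.861 to 1.32) could not be told from equal levels at this depth. E2f1, an activator of S-phase genes, was at 14.3 and 12.8 CPM, with a ratio of 0.895 (0.803 to 0.998). Slbp, which binds replication-dependent histone mRNA, was at 116 and 104 CPM, a ratio of 0.900 (0.867 to 0.935). All 4 lay below the median of all genes.

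**Figure D2:**
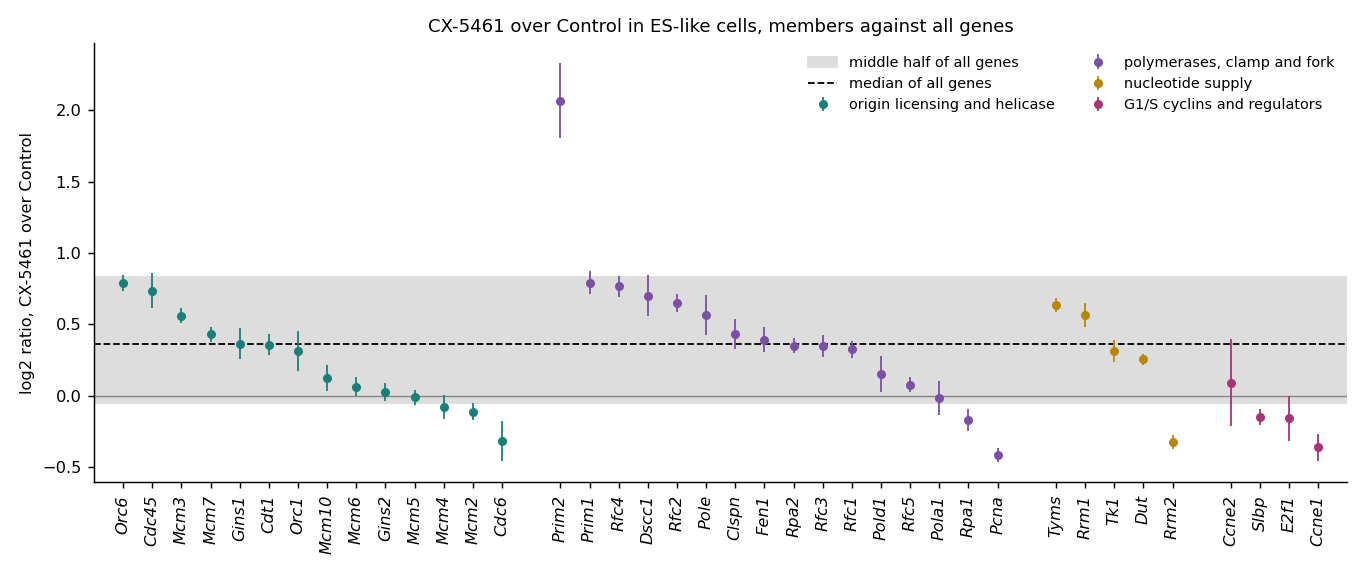
The log2 ratio of CX-5461 over Control for each of the 39 genes in ES-like cells, grouped by role and sorted within each role; bars are exact 95% intervals of counting error, the dashed line is the median of all 11567 genes (0.36) and the grey band their quartiles (-0.05 to 0.83). Of the members, 29 lie within the band, Prim2 above it and 9 below it.

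The plot of ratios against all genes shows 9 members under the lower quartile of all genes: Cdc6, Mcm2, Mcm4, Pcna, Rpa1, Rrm2, Ccne1, E2f1 and Slbp. By the definition of a quartile, a set of 39 drawn from all genes would hold about as many. These 9 kept a negative log2 ratio under all alternatives of scaling and cell choice. The scalings lower every log2 ratio, by 0.40 (TMM) and 0.45 (DESeq2), so they could not turn a negative one positive. For the 9, only the other alternatives could have done so. Mcm4, whose interval included equal levels, was higher in CX-5461 in the high G2/M cells described below (log2 ratio 0.42). Another 11 members kept a positive log2 ratio under all alternatives: Orc6, Mcm3, Cdc45, Prim1, Prim2, Pole, Rfc2, Rfc4, Dscc1, Rrm1 and Tyms. The other 19 changed sign under at least 1 alternative, in most cases a scaling that centres the bulk of genes. Their direction is therefore not fixed by these data. The share of all genes that kept their sign in this way was not determined.

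The clusters were made without these genes, so the levels could be read in each of them. Both CX-5461 clusters were above both Control clusters for 21 members, or 53.8% of them, against 57.7% of all genes. They were below for 5 members, Cdc6, Pcna, Rpa1, Ccne1 and E2f1, against 20.2% of all genes. Pcna was at 149 and 125 CPM in the Control clusters c1 and c4 and at 107 and 98.1 CPM in the CX-5461 clusters c0 and c3. Ccne1 was at 41.6 and 40.0 CPM in c1 and c4, 35.1 CPM in c0 and 18.8 CPM in c3. Prim2 was at 3.44 and 3.23 CPM in the Control clusters, 12.5 CPM in c0 and 21.1 CPM in c3. Cluster c3, which holds 21.6% of the CX-5461 ES-like cells, thus carried the more extreme levels of all 3. For Rrm2 the clusters overlapped, with 167 and 145 CPM in Control and 121 and 149 CPM in CX-5461. The Control cluster c1 was led by Hist1h2 histone genes, and its replication genes summed to 2647 CPM against 2345 CPM in c4.

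To compare shares of cells, each cell was thinned to 5000 UMIs. At this depth the share of ES-like cells with a UMI was higher in CX-5461 for 28 members and lower for 11, or 71.8 and 28.2% of them, against 70.8 and 28.7% of all genes. The exact intervals of both libraries were apart for 21 higher members (53.8%, against 43.6% of all genes) and for 5 lower ones (12.8% of the members and of all genes). Orc6 had a UMI in 33.5% (31.6 to 35.5) of the Control and 49.9% (48.3 to 51.5) of the CX-5461 cells. Tyms was found in 43.2% and 59.5% of cells, and Prim2 in 2.23% and 6.80%. In the other direction, Pcna had a UMI in 54.2% (52.2 to 56.3) of the Control and 45.1% (43.5 to 46.6) of the CX-5461 cells. Rrm2 was found in 52.1% and 45.0%, and Ccne1 in 18.7% and 14.0%. Without thinning, 21 members were higher and 18 lower, and Pcna was found in 93.5% and 90.8% of cells. In fibroblast-like cells, with medians of 21540 and 23485 UMIs before thinning, the share for Pcna was 13.1% in Control and 11.0% in CX-5461.

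Every ES-like cell carried RNA of this set. In cells thinned to 5000 UMIs, the 39 genes gave a median of 13 UMIs in Control (10th to 90th percentile 7 to 19) and of 15 in CX-5461 (9 to 21), with 0 cells of either library at 0. A Control cell showed a median of 10 different members and a CX-5461 cell 11. The distribution had a single broad peak in both libraries, and its variance was 1.59 and 1.52 times its mean. No separate group of cells without replication transcripts was seen in either library. The G1/S genes alone were missing from 42.9% of Control cells and 48.5% of CX-5461 cells at this depth. Across cells, the sums of the 4 groups had Pearson correlations of 0.11 to 0.14 in Control (n = 2331) and of 0.07 to 0.12 in CX-5461 (n = 3928). These weak values share each cell's library and depth and are given only as a description.

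**Figure D3:**
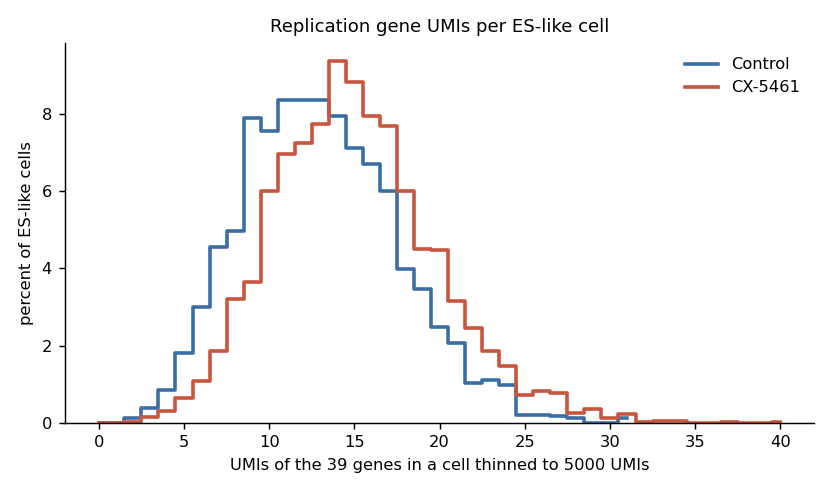
Percent of ES-like cells (vertical axis) by the number of UMIs of the 39 replication genes in the cell (horizontal axis), each cell thinned to 5000 UMIs, for 2331 Control (blue) and 3928 CX-5461 (red) cells. Both curves have a single peak, with medians of 13 and 15 UMIs.

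On library totals, the libraries also differed in G2/M transcripts, which mark cells past S phase. A list of 35 G2/M genes, none of them a member, took 3019.7 CPM in Control and 3664 CPM in CX-5461 ES-like cells. The log2 ratio was 0.28, below the median of all genes (0.36), so the list rose less than the average gene. Cells were therefore split by their G2/M UMIs at equal depth: low cells had at most 13, high cells at least 20, and the limits were set on both libraries together. The low stratum held 1111 Control (47.7%) and 1332 CX-5461 cells (33.9%), and the high stratum 463 (19.9%) and 1369 (34.9%). These shares rest on UMI counts at equal depth that were not scaled to the bulk of genes.

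Within each stratum the sums kept their direction on library totals. The replication genes together were at 2682 CPM in Control and 3101 CPM in CX-5461 in low cells, a log2 ratio of 0.21. In middle cells the log2 ratio was also 0.21, and in high cells it was 0.26, at 2432 and 2904 CPM. The G1/S group was lower in CX-5461 in all 3 strata, with log2 ratios of -0.20, -0.33 and -0.26. Gene by gene, 23 members were higher in all 3 strata (59.0%, against 56.0% of all genes), 8 were lower in all 3 (20.5%, against 19.5% of all genes), and 8 were mixed. Relative to the median of all genes in each stratum, 12 members were above it in all 3 (35.9% of all genes) and 13 below it in all 3 (35.8% of all genes). These shares of members were near those of all genes on both scales. Those lower in all 3 were Cdc6, Mcm2, Pcna, Rpa1, Rrm2, Ccne1, E2f1 and Slbp. Pcna had log2 ratios of -0.37, -0.44 and -0.49 from low to high cells, and Prim2 had 1.82, 1.57 and 1.47. The strata did not equalise the G2/M level: it was 1920.6 and 1966.5 CPM in low cells, 3244 and 3265 CPM in middle cells, and 4806 and 5225 CPM in high cells, a ratio of 1.09 (1.06 to 1.11) in the last. The larger share of high G2/M cells in the CX-5461 library moved alongside the differences of the members, and its part in them was not tested.

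From low to high G2/M cells, replication transcripts differed little. The sum in high cells was 0.907 of that in low cells in Control (0.879 to 0.935) and 0.936 in CX-5461 (0.918 to 0.955). The groups with the lower level in high cells were not the same in both libraries, although the difference between libraries was not tested. Nucleotide supply was at 0.821 (0.769 to 0.876) in Control and 0.978 (0.939 to 1.02) in CX-5461. The polymerase and fork genes were at 0.962 (0.913 to 1.01) in Control and 0.866 (0.838 to 0.895) in CX-5461. Dut went with the former, at 0.781 and 1.02, and Rfc2 with the latter, at 1.02 and 0.838. Orc6 and Slbp were lower in high cells of both libraries with intervals below 1, at 0.767 and 0.798 for Orc6 and at 0.849 and 0.787 for Slbp. Orc1 was higher in high cells of both, at 1.57 (1.07 to 2.28) and 1.36 (1.06 to 1.73).

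**Figure D4:**
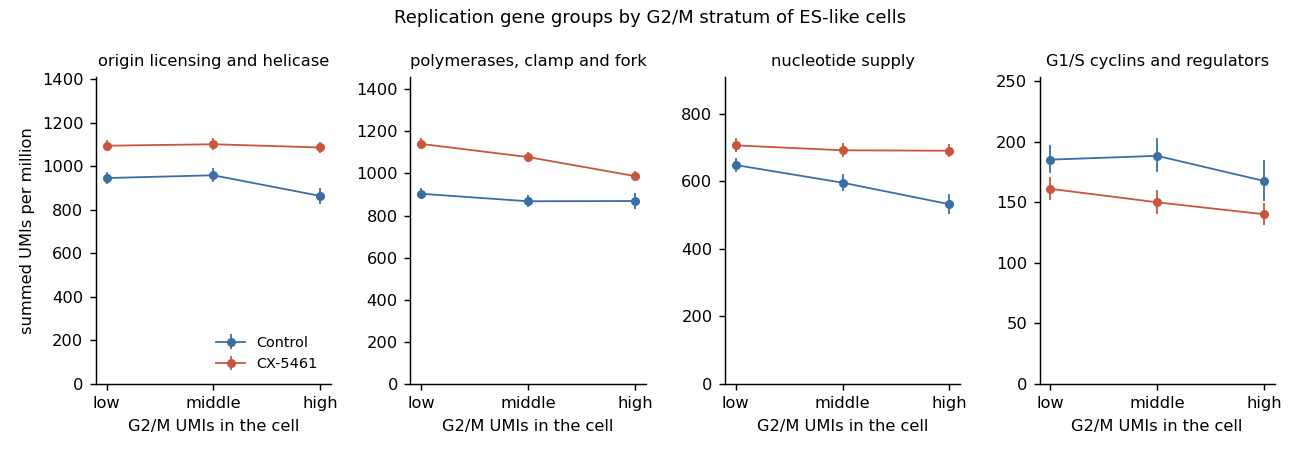
Summed level of each replication gene group in ES-like cells with low (at most 13), middle and high (at least 20) G2/M UMIs, in CPM after thinning to 5000 UMIs per cell, for Control (blue) and CX-5461 (red); bars are exact 95% Poisson intervals. CX-5461 is above Control in all strata for licensing, polymerase and nucleotide genes and below it for the G1/S group, on library totals.

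The other genes of the pathway, 89 from 4 lists written by function, also stood below the average gene. Of 88 with at least 200 UMIs, 15 were 1.5-fold higher (17.0%, against 36.2% of all genes) and 5 lower (5.68%, against 7.45% of all genes), and their median log2 ratio was 0.19, against 0.36 for all genes. Relative to the median of all genes, 6 were 1.5-fold higher (21.2% of all genes) and 19 lower (17.0% of all genes). The highest were Recql4, a helicase needed for initiation, with 117 and 1221 UMIs (log2 ratio 2.83), and Rb1, the retinoblastoma repressor of E2F (2.47). Cdkn1a, the p21 inhibitor of cyclin-dependent kinases, followed at 127 and 535 CPM (2.07), and then Rbl2, a relative of Rb1 (1.79). Next were Pold4, a small polymerase delta subunit (1.72), and Cad, the enzyme that begins pyrimidine synthesis, at 24.6 and 75.2 CPM (1.61). Pola2, the second subunit of the polymerase that carries primase, was at 12.5 and 23.0 CPM (0.88), while Pola1 had -0.02.

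The lowest were Rrm2b, the p53-inducible subunit of ribonucleotide reductase (6.50 and 2.73 CPM, log2 ratio -1.25), and Cdk6 (-0.93), a cyclin D kinase. Uhrf1, which couples DNA methylation to replication, went from 156 to 82.4 CPM (-0.92). Hells, a chromatin remodeller, went from 277 to 151 CPM (-0.88), and Ccnd2, cyclin D2, had 196 and 191 UMIs (-0.59). The S-phase cyclin Ccna2 had a log2 ratio of -0.23. Ccnd1, cyclin D1, had 0.24 and Gmnn, the inhibitor of Cdt1, 0.19, and both were below 0 relative to the median of all genes. Of the 24 other G1/S regulators tested, 9 were higher and 15 lower on library totals. Among the 20 other licensing genes, 15 were higher and 5 lower, near the share of all genes that were higher (72.5%).

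In fibroblast-like cells the replication genes were far lower than in ES-like cells, and lower again in CX-5461. Together they took 480.1 CPM (460.1 to 501, from 2156 UMIs) in Control and 327 CPM (309.7 to 346, from 1288 UMIs) in CX-5461, a ratio of 0.682 (0.636 to 0.731). Of the 39 members, 36 were lower (92.3%) and 3 higher, and the intervals of 14 lay below equal levels (35.9%). Of all 14135 genes with at least 7 UMIs, the count of the lowest member, 41.2% were lower and 58.8% higher, and the intervals of 12.6% lay below equal levels. The ES markers other than Klf4 were also lower in these cells in CX-5461, at 235 against 381 CPM, a ratio of 0.616 (0.568 to 0.668), and the part of RNA carried over from ES cells in the members' lower level was not tested. Rrm2 went from 186 to 62 UMIs, or 41.4 to 15.8 CPM, a log2 ratio of -1.39. Dut went from 212 to 115 UMIs, a log2 ratio of -0.69. Rfc1 (0.32), Ccne1 (0.38) and E2f1 (0.16) were the 3 above Control, with intervals that included equal levels. Only 5 members had at least 200 UMIs here. Of these Rrm2 and Dut were 1.5-fold lower and none was higher, while 10.9% of 3912 genes were lower and 20.5% higher.

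In droplet libraries, free RNA gives UMIs of ES genes in other cells, so the ES markers were read beside the members. Leaving out Klf4, which stood higher in fibroblast-like than in ES-like cells and was set aside after that was seen, the 11 other ES markers together stood at 5.01% of their ES-like level in Control fibroblast-like cells and 2.91% in CX-5461. Single markers ranged from 2.60 to 13.9% and from 1.84 to 4.08%. The replication genes together stood at 18.9% (18.1 to 19.7) and 10.9% (10.3 to 11.5). In both libraries 14 members had intervals above the highest of these markers, among them Orc6, Pcna, Rrm1, Rrm2, Dut and E2f1. The share of all genes above these limits was not determined, so the count shows nothing particular to replication genes. Rrm1 stood at 66.5 and 34.3% and E2f1 at 83.9 and 105%. In both libraries 7 members stood no higher than the highest marker: Orc1, Mcm3, Mcm5, Mcm10, Cdc45, Prim1 and Rpa2. Mcm5 stood at 8.79 and 3.30% and Rpa2 at 11.1 and 2.26%, so their counts (49 and 16 UMIs for Mcm5, 53 and 12 for Rpa2) give no level that could be read as that of the fibroblast-like cells.

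**Figure D5:**
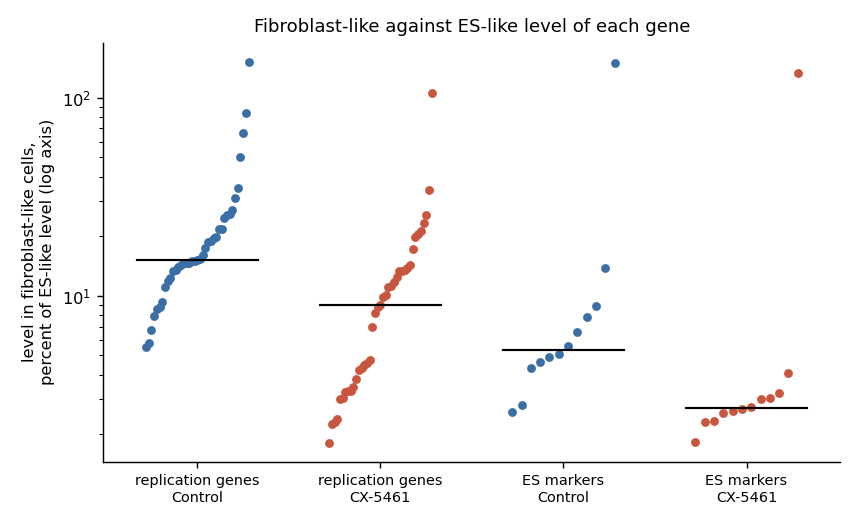
Level of each gene in fibroblast-like cells as a percent of its level in ES-like cells of the same library (log axis), for the 39 replication genes and the 12 ES markers, Control in blue and CX-5461 in red; black lines are medians. The median of the replication genes lies above that of the markers in both libraries (15.1 against 5.35% in Control and 8.96 against 2.72% in CX-5461). The single high marker is Klf4. Without it, 12 members in Control and 11 in CX-5461 lie no higher than the highest marker.

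Other transcripts moved with the lower level in fibroblast-like cells. The 35 G2/M genes went from 406 to 152 CPM there, a ratio of 0.375, and Klf4 with the other ES markers from 520.4 to 416 CPM. Their median mitochondrial share was 1.90% in Control and 3.09% in CX-5461. The 8 macrophage markers went from 218 to 17.0 CPM, with 0 and 4 of them at 0 UMIs, and the 17 fibroblast markers from 9164 to 12999.7 CPM. The part of these differences in the lower level of the replication genes was not tested. Fewer cycling cells and less RNA per cell cannot be told apart in such sums, although 20.7% of Control and 24.5% of CX-5461 fibroblast-like cells had no member UMI at 5000 UMIs per cell.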

How the data were processed

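The deposited files hold the authors' UMI counts by gene and barcode, without normalization, from 10x Genomics 3′ V2 libraries run through a published droplet pipeline. The build named in the submitters' notes was mm10, and whether counting used strand is not given in the sources used here. Seurat 2.3.4 and the study's filter (at least 500 UMIs, at most 0.2 mitochondrial) came after the deposited counts. That filter left 3767 Control and 4697 CX-5461 barcodes, more than the study states for either condition. A deposited column of counts shared between genes was used for checks only; among the members it held 1 UMI.

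Symbols came from GENCODE M21 (54079 of 54146 identifiers matched). Cells were clustered with scanpy 1.11.5 (2000 variable genes without the members, the other replication lists and G2/M genes, 16 components, 15 neighbours, Leiden resolution 0.5). Clusters were named from markers: fibroblast-like and 2C-like from at least 3 markers among the 50 leading genes, ES-like from ES markers whose level reached 0.5 of that over all cells. A cluster with median UMIs below the library's median divided by 3 stayed unnamed if its 10 leading genes held no marker of its class. Cluster c2, with ES markers at 1.08 of their level over all cells, was unnamed for this reason. That left out 108 Control and 0 CX-5461 cells within the limits on depth and mitochondrial share. The 12 ES, 17 fibroblast, 8 macrophage, 8 primitive endoderm and 16 2C markers were textbook lists, and no cluster was named macrophage-like or primitive endoderm-like. Primitive endoderm markers were at 5.72 and 10.3 CPM in Control and CX-5461 ES-like cells and 2C markers at 0.727 and 2.83 CPM. No doublet caller was run.

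Counts were summed over cells and divided by the library total (CPM). Intervals were Poisson for CPM, conditional binomial for ratios and Clopper-Pearson for shares, all exact at 95%. A gene was called at 1.5-fold among genes with at least 200 UMIs. There was no test, since each condition was 1 library. Named were all members, the 6 highest and up to 6 lowest other replication genes past 1.5-fold, and Cdkn1a, Ccna2, Ccnd1 and Gmnn; Pola2 was named after its value was seen. The members and lists were chosen with earlier results of these data known. Scaling by edgeR 4.0.16 TMM and DESeq2 1.42.0 size factors, other cell filters, classes, folds and strata were tried as alternatives. Ratios and thinning were also checked on simulated counts.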

Additional observations from a re-analysis of the deposited data

Results flagged for a closer look

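On library totals, the summed level of the replication genes moved in opposite directions in the cell classes. The log2 ratio of CX-5461 over Control was 0.24 in ES-like cells and -0.55 in fibroblast-like cells, a difference of -0.79 (fibroblast-like minus ES-like). With 1 library per condition this difference was not tested. The ES-like value turned negative under TMM and DESeq2 scaling, so that the sums of both classes were then negative. These scalings also lower every log2 ratio in fibroblast-like cells, by 0.15 and 0.19. The fibroblast-like value therefore could not turn positive under them. In the fibroblast-like cells the ES markers other than Klf4, a measure of free RNA from ES cells, had a log2 ratio of -0.70.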

How the results depend on the processing

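No paired analysis was possible because the tables name no sample, and for the same reason no replicate could be left out. Under TMM scaling in ES-like cells, the summed log2 ratio of the members turned to -0.16 and their median to -0.086, and the sums turned to -0.14 for licensing, -0.12 for polymerases and -0.15 for nucleotide supply, with -0.59 for the G1/S group. Under DESeq2 size factors these were -0.21, -0.13, -0.18, -0.16, -0.20 and -0.64. The members at least 1.5-fold higher and lower were then 1 and 4 with TMM and 1 and 7 with DESeq2, and the other replication genes 6 and 22, and 6 and 23. All genes past that fold were 20.0% higher and 18.6% lower with TMM, and 18.8 and 20.6% with DESeq2. With the mean over cells, the members' sum was 0.20, licensing 0.23, polymerases 0.26, nucleotide supply 0.19 and G1/S -0.26. With cells thinned to 5000 UMIs, the sum was 0.21, licensing 0.23, nucleotide supply 0.20 and G1/S -0.28. The sum was 0.25 with the study's filter. Without the 5% of cells with most UMIs it was 0.22, with licensing at 0.24 and nucleotide supply at 0.22. At the lower fold limit, 19 members were higher (48.7%, against 52.5% of all genes) and 3 lower (7.69%, against 13.8%), and at 2-fold 1 was higher (2.56%, against 19.5%). The other replication genes higher and lower were 32 and 12 at the lower fold limit and 6 and 1 at 2-fold. They were 9 and 3 among genes with at least 1000 UMIs, a filter added after the data were seen. The share of all genes at that filter is not given here, so the 9 and 3 cannot be read against a background. In fibroblast-like cells the sum was -0.70 with TMM, -0.74 with DESeq2 and -0.43 thinned. Strata of at most 8 and at least 28 G2/M UMIs, also added later, gave 0.13 and 0.32 for the members' sum. The planned stratum at 0 G2/M UMIs gave no value, since 0 Control cells were there. Causes were not tested, apart from the scalings, which shift all genes by 0.40 (TMM) and 0.45 (DESeq2) log2 units in ES-like cells. In 89 other cases a summary value kept its direction and moved by less than its counting interval, or by less than 1.5 times for a count.

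With 1 library per condition, the spread between cultures is unknown, and intervals cover counting error only. Ccne2 and Prim2 in Control rest on 146 and 139 UMIs, and most members in fibroblast-like cells on under 100.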

Other observations

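Some cells stood outside the comparisons. A Control cluster of 1169 unnamed cells, with a median of 2388 UMIs and 11.9% of them mitochondrial, gave 2501 CPM of the replication genes (2449 to 2555). The 513 CX-5461 ES-like cells outside the limits on depth and mitochondrial share, with medians of 5504 UMIs and 15.7% mitochondrial, gave 3529 CPM (3464 to 3596). The 34 such Control cells gave 2194 CPM (1908 to 2512).

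Cells of the 2C-like cluster, which resemble the totipotent cells of the early embryo, also carried these transcripts. The 9 Control cells gave 1526 CPM (1313 to 1764, from 183 UMIs) and the 83 CX-5461 cells 2636 CPM (2541 to 2734). In CX-5461 the 2C-like cells had 959.8 CPM of licensing genes and 119 CPM of G1/S genes, against 1093 and 153 CPM in ES-like cells. These values cover counting error only, and the 9 Control cells are too few to describe the class.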
